A study of Mus musculus with 6 samples.

Results

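The genes described here are 10 nuclear receptors of liver metabolism, Ppara, Pparg, Esrra, Esrrg, Nr1h3, Nr1h4, Nr1i2, Nr1i3, Hnf4a and Rxra. They were chosen by name, with earlier results of these data known. Every probe set annotated to exactly 1 of these symbols was taken, which gave 19 probe sets of the 45141 on the array and 10 of the 17097 genes with a probe set. A gene is represented by the probe set that was brightest on average, and its other probe sets are given beside it.

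Liver RNA came from 3 pools of Nrg4 knockout (KO) mice and 3 pools of wild-type (WT) mice, 1 pool per array. Nrg4 encodes neuregulin 4, a growth factor made in brown fat that acts through ErbB receptors. Both genotypes are labelled C57BL/6, both were given high-fat food from the age of 3 months and kept on it for 8 weeks, and livers were taken from randomly fed animals. The sources used here do not give the kind of Nrg4 allele, the sex of the mice or how many were pooled. The p-values therefore measure the spread between pools.

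Nuclear receptors are transcription factors that bind a lipid-like ligand in one domain and DNA in another. Most receptors of this set pair with the retinoid X receptor, which Rxra encodes, and the pair binds copies of a short half-site. PPAR, LXR and FXR receptors read fatty acids, oxysterols and bile acids, PXR and CAR read foreign compounds, and HNF4A keeps hepatocyte genes on. The ERR receptors have no known natural ligand and act on mitochondrial genes with PGC-1 coactivators. Their own messenger level is only a part of their activity, which ligands and cofactors also set.

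The half-site is shown where it occurs in the promoters of the receptor genes themselves. RefSeq windows of assembly GRCm38.p6, from 250 bases before to 50 bases after a transcript's start, were found for all 10 genes (18 windows). The letters AGGTCA, on either strand, stood in 4 of these windows, of 3 genes, and in 16.3% of all 32851 windows. The matches are printed on the gene's strand with the half-site in capitals and up to 20 bases on each side, before the start site only.
Rxra, chr2:27709185-27709230, plus strand: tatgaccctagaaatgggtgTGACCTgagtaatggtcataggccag
Rxra, chr2:27709224-27709269, plus strand: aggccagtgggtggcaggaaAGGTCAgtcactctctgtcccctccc
Pparg, chr6:115361096-115361141, plus strand: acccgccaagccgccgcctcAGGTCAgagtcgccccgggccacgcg
Pparg, chr6:115362320-115362348, plus strand: tttatataagggacgcgaggAGGTCAaga
Nr1h4, chr10:89506847-89506892, minus strand: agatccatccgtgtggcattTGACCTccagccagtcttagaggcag
The ERR form of the site, TCAAGGTCA, which contains AGGTCA, stood in 0 of the 18 windows and in 0.423% of all windows. Direct repeats of AGGTCA spaced by 1 base or by 4 bases also stood in 0 of the 18 windows, and in 0.0396% and 0.0152% of all windows. Such a match is a run of letters and not a measured binding site.

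The arrays carried the genotypes on their labels. Nrg4 read 2.56, 2.43 and 2.64 in the KO arrays, against 4.94, 4.79 and 4.77 in the WT arrays, on the log2 RMA scale used throughout (limma adjusted p = 4.76e-05). The sources used here do not say whether this probe set lies in the deleted stretch. Array medians lay between 2.98 and 3.04. Of 12466 genes above the limit for dim signal (log2 2.66), 5 passed at an adjusted p under 0.05, which is 0.0401%. Of the 10 receptor genes, 0 lie on chromosome 9, where Nrg4 is. The mean of the 3 control probe sets for 18S ribosomal RNA was 6.46, 6.68 and 6.01 in the KO arrays and 7.83, 8.19 and 8.15 in the WT arrays. The difference between 5' and 3' control probe sets, which tracks RNA integrity, was -1.31, -0.70 and -0.65 in the KO arrays and -0.95, -0.78 and -0.96 in the WT arrays. Their part in the receptor values was not tested. Hepatocyte markers were all above the dim limit, with 5 of 10 higher and 5 lower in KO and a median log2 change of -0.01, which lay between -0.017 and 0.026 with 1 array left out. Their means by array, given below with other markers, were lowest in WT replicate 3 and KO replicate 1.

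All 10 receptors were above the dim limit, and 0 of the 10 passed limma's test over all genes at an adjusted p under 0.05. The count was also 0 under 0.10, where 0.241% of all genes passed. The unadjusted p was under 0.05 in 3 receptors, Esrrg on the lower side and Ppara and Pparg on the higher side, against 2.18% of all genes lower and 7.36% higher. The KO and WT arrays did not overlap in 3 of the 10, Ppara, Esrrg and Rxra, against 15.6% of all genes. The median log2 change of the 10 was 0.01, and that of all genes tested 0.04. The other 7 receptors, which are Esrra, Nr1h3, Nr1h4, Nr1i2, Nr1i3, Hnf4a and Rxra, had log2 changes between -0.06 and 0.11. Their 95% intervals lay between -0.32 and 0.36, so the data leave room for changes up to those bounds.

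**Figure D1:**
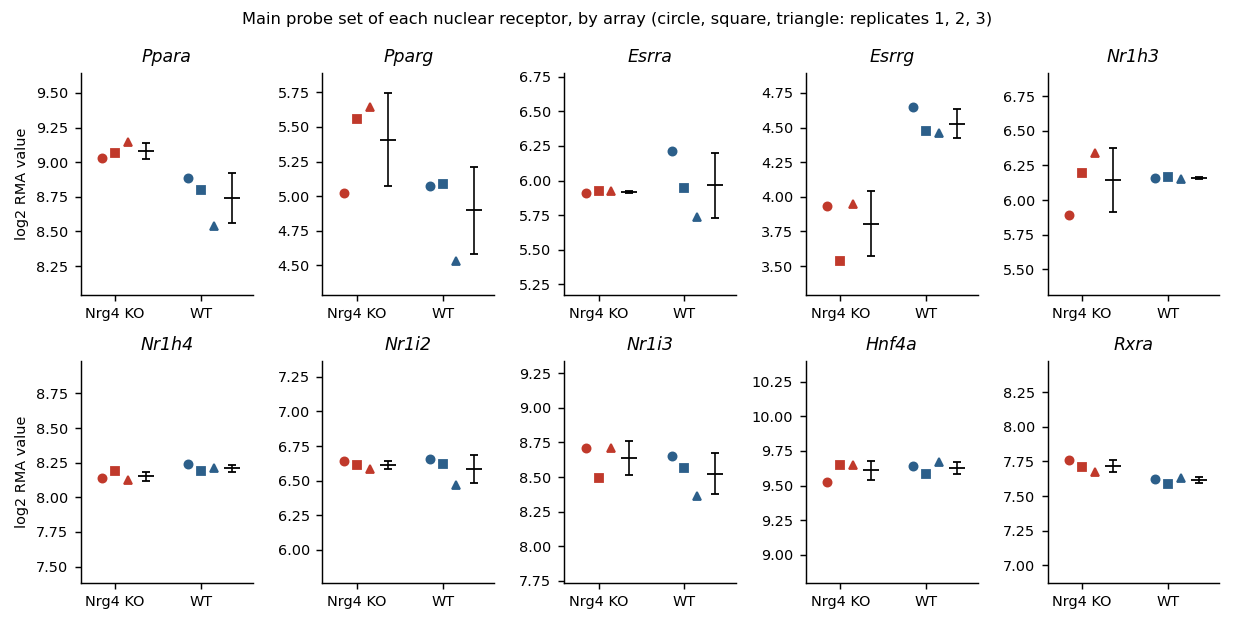
Log2 RMA value (vertical axes, each spanning the same number of log2 units) of the main probe set of each receptor in the 3 Nrg4 KO arrays (red, left) and the 3 WT arrays (blue, right); the bar to the right of each group is its mean ± SD. The genotypes are apart in Esrrg, Ppara and, by a small amount, Rxra, and KO replicate 1 of Pparg sits among the WT arrays.

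Esrrg, which encodes the orphan receptor ERR gamma, had the smallest unadjusted p of the 10 and stood 37th of the 12466 genes in that order. It read 3.93, 3.54 and 3.95 in the KO arrays, against 4.65, 4.48 and 4.46 in the WT arrays. Every KO array lay under every WT array, with the lowest value in KO replicate 2. The log2 change was -0.72 (SE 0.13, 95% interval -1.01 to -0.43, n = 3 arrays per genotype), a 1.65-fold lower value in KO. It did not pass over all genes (limma adjusted p = 0.126). With array quality weights it did, by a small margin (log2 change -0.73, limma adjusted p = 0.0486).

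A further probe set of Esrrg was dim, with a mean of 2.61. It read 2.61, 2.45 and 2.39 in the KO arrays and 2.56, 2.68 and 2.98 in the WT arrays, and the genotypes overlapped. Its log2 change was -0.25 (95% interval -0.52 to 0.02), the same direction as the main probe set. The signal of Esrrg was low on both probe sets. The 23 control probe sets for nonspecific binding had array medians of 1.65 to 1.76 and reached 5.29 to 5.84, so the main probe set of Esrrg was above most of these controls and below the highest.

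Esrra encodes ERR alpha, the close relative of ERR gamma and a regulator of mitochondrial genes. It read 5.91, 5.92 and 5.92 in the KO arrays and 6.21, 5.94 and 5.74 in the WT arrays. The KO arrays lay within the range of the WT arrays, and the log2 change was -0.05 (95% interval -0.32 to 0.23, limma adjusted p = 0.928). A single probe set represented the gene. Its value in WT replicate 3 was below 5.84, the highest nonspecific control over all arrays.

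The tested genes whose centred values lay closest to those of Esrrg over the 6 arrays were Cep164, Acot3 and Glyctk. Their root mean square differences from Esrrg were 0.10, 0.11 and 0.14 on the log2 scale, where the median over 12465 genes was 0.43. Cep164 encodes a centriole protein, Acot3 a peroxisomal acyl-CoA thioesterase and Glyctk glycerate kinase. Cep164 and Glyctk lie on the chromosome of Nrg4 and Acot3 does not. Likeness over 6 arrays in 2 groups mostly measures a lower value in KO of similar size, so it is a description of these arrays.

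Ppara encodes PPAR alpha, the fatty acid receptor that turns on fatty acid oxidation and ketogenesis in the fasting liver. Its 3 probe sets did not agree. The brightest read 9.03, 9.07 and 9.14 in the KO arrays, against 8.89, 8.80 and 8.54 in the WT arrays, with every KO array above every WT array. Its log2 change was 0.34 (SE 0.11, 95% interval 0.09 to 0.58, limma adjusted p = 0.379).

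The second probe set of Ppara read 8.46, 8.54 and 8.48 in the KO arrays, against 8.56, 8.72 and 8.58 in the WT arrays. The third read 7.27, 7.63 and 7.42 in the KO arrays, against 7.67, 7.96 and 7.75 in the WT arrays. In both, every KO array lay under every WT array. Their log2 changes were -0.13 (95% interval -0.32 to 0.07) and -0.35 (95% interval -0.62 to -0.09). Thus no overlap was seen in any of the 3 probe sets, on the higher side in 1 and on the lower side in 2. Over all probe sets that were not controls, 8.30% had every KO array above and 5.09% every KO array below. The mean of the 3 probe sets gave a log2 change of -0.05 (95% interval -0.24 to 0.15), so the direction of the gene depends on which probe sets are read.

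**Figure D2:**
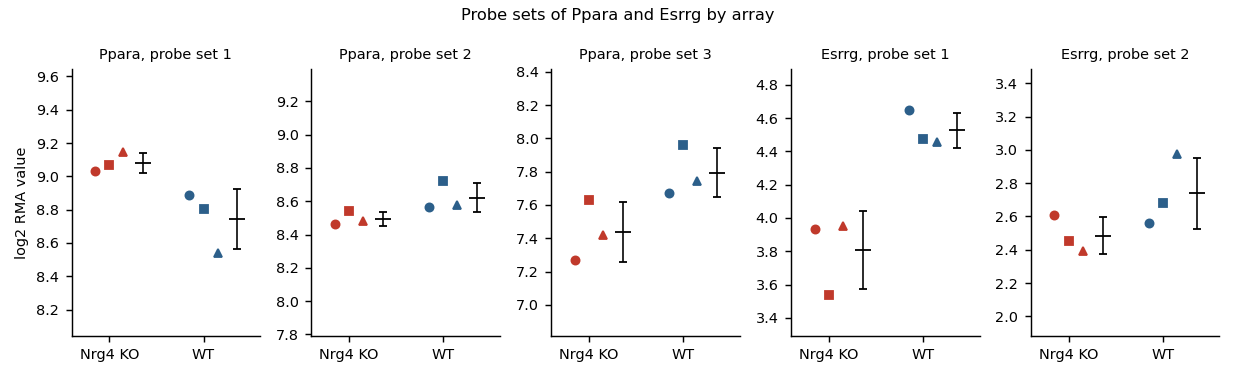
Log2 RMA value (vertical axes, each spanning the same number of log2 units) of the 3 probe sets of Ppara and the 2 of Esrrg in the Nrg4 KO arrays (red, left) and the WT arrays (blue, right), with circles, squares and triangles for replicates 1, 2 and 3 and a bar for mean ± SD. The KO arrays are above the WT arrays in the brightest Ppara probe set and below them in the other 2.

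The disagreement was tested on the difference between probe sets within each array, a test added after the values were seen. The brightest minus the second was 0.57, 0.52 and 0.66 in the KO arrays, against 0.32, 0.08 and -0.04 in the WT arrays. The brightest minus the third was 1.76, 1.44 and 1.73 in the KO arrays, against 1.21, 0.84 and 0.79 in the WT arrays. Both differences were larger in every KO array than in any WT array. The log2 changes of the differences were 0.46 (SE 0.13, 95% interval 0.17 to 0.76) and 0.69 (SE 0.15, 95% interval 0.35 to 1.04). Fitted over 6552 such pairs of 4386 genes, they did not pass (limma adjusted p = 0.274 and 0.195). Of all these pairs, 0.0458% passed and 9.55% had every KO array above every WT array. The sources used here do not give where on the transcript each probe set lies.

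Pparg encodes PPAR gamma, the receptor of adipocyte differentiation and lipid storage, which is also expressed in macrophages and endothelium and is known to rise in fatty liver. It read 5.02, 5.56 and 5.65 in the KO arrays, against 5.07, 5.09 and 4.53 in the WT arrays. KO replicates 2 and 3 were above all WT arrays and KO replicate 1 was below WT replicates 1 and 2, so the genotypes overlapped. The log2 change was 0.51 (SE 0.20, 95% interval 0.06 to 0.96, limma adjusted p = 0.481). Without KO replicate 1 it was 0.70 (limma adjusted p = 0.152), and without WT replicate 3 it was 0.33 with an interval of -0.10 to 0.75 (limma adjusted p = 0.699). The gene had 1 probe set, and its SE was the highest of the 10 receptors. Its signal was low as well, with a mean over the 6 arrays of 5.15, where the highest nonspecific control of an array read 5.29 to 5.84.

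In the markers of macrophages, endothelium, stellate cells and hepatocytes, KO replicate 1 was the lowest KO array, as in Pparg. In those of some other cells it was not. The mean centred log2 value of 12 macrophage markers, all above the dim limit, was -0.27, 0.38 and 0.49 in the KO arrays and -0.12, -0.31 and -0.17 in the WT arrays. As in Pparg, KO replicate 1 was low and KO replicates 2 and 3 were high. The mean of 10 endothelial markers was -0.01, 0.25 and 0.30 in the KO arrays and -0.08, -0.09 and -0.36 in the WT arrays. The mean of 9 stellate cell markers was 0.05, 0.17 and 0.25 in the KO arrays and -0.02, -0.19 and -0.25 in the WT arrays. That of 10 hepatocyte markers was -0.10, 0.09 and 0.09 in the KO arrays and 0.02, 0.04 and -0.14 in the WT arrays. Among the WT arrays, replicate 3 was lowest in Pparg and in the endothelial, stellate cell and hepatocyte markers, and replicate 2 in the macrophage markers. The mean of 6 lymphocyte markers was 0.11, -0.11 and 0.17 in the KO arrays. That of 2 cholangiocyte markers was 0.12, -0.11 and 0.28, and that of 3 muscle markers 0.08, -0.01 and -0.06. KO replicate 1 was not the lowest KO array in these lists. Uncentred, the macrophage mean ranged from 6.16 to 6.92 in the KO arrays and from 6.11 to 6.31 in the WT arrays, and the endothelial mean from 5.27 to 5.58 in the KO arrays and from 4.92 to 5.20 in the WT arrays. All 12 macrophage markers and 9 of 10 endothelial markers had a positive log2 change, with Adgre1 at 0.64 and Lyve1 at 1.29 the members of smallest p; 63.4% of all genes had a positive change, and 0 of these markers passed. All 9 stellate cell markers tested were higher too (median 0.23, Col3a1 at 0.80), and none passed. Their median was 0.39 without KO replicate 1, 0.35 without WT replicate 1 and 0.14 without WT replicate 3. The macrophage median, 0.34, was 0.52 without KO replicate 1, and the endothelial median, 0.29, was 0.18 without WT replicate 3. Of the adipocyte markers Adipoq and Lep were dim and 2 were tested. Fabp4, which is also in the PPAR gamma list, had a log2 change of 0.39, and Retn had one of -0.05. In bulk liver, more cells of a type and more RNA per cell cannot be told apart, and the part of other cells in the value of Pparg was not tested.

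**Figure D3:**
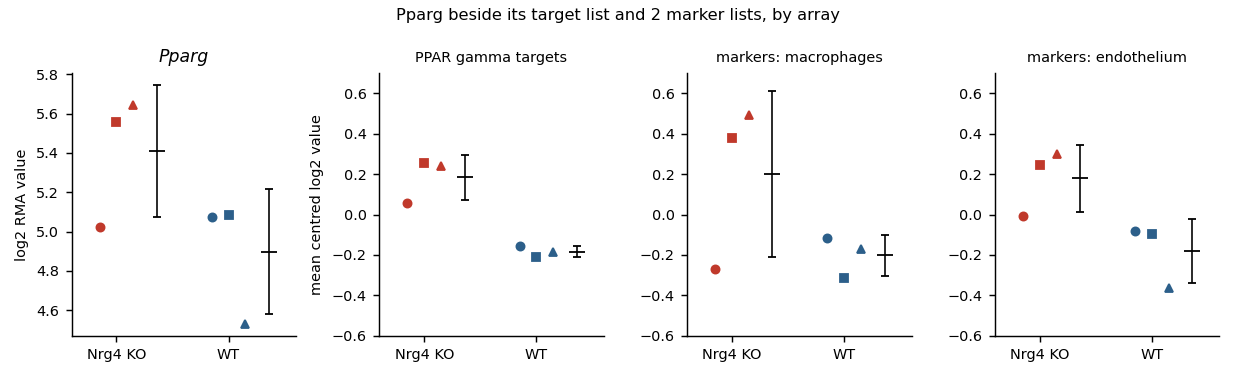
Log2 RMA value of Pparg (first panel) and mean log2 value, centred on each gene's own mean over the 6 arrays, of the PPAR gamma targets, macrophage markers and endothelial markers (other panels), in the Nrg4 KO arrays (red, left) and the WT arrays (blue, right). Circles, squares and triangles are replicates 1, 2 and 3, and bars are mean ± SD; KO replicate 1 is the lowest KO array in each panel.

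Nr1h3 encodes LXR alpha, the oxysterol receptor that drives cholesterol efflux and lipogenic genes. It read 5.89, 6.20 and 6.34 in the KO arrays and 6.16, 6.17 and 6.15 in the WT arrays. The WT arrays lay within 0.02 of each other and the KO arrays on both sides of them, with KO replicate 1 lowest. The log2 change was -0.02 (95% interval -0.29 to 0.26, limma adjusted p = 0.978). Without KO replicate 1 it was 0.11 (95% interval -0.10 to 0.32).

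Nr1h4 encodes FXR, the bile acid receptor that represses bile acid synthesis through the small receptor SHP (Nr0b2). It read 8.14, 8.19 and 8.13 in the KO arrays and 8.24, 8.19 and 8.21 in the WT arrays, and the genotypes overlapped. The log2 change was -0.06 (SE 0.08, 95% interval -0.24 to 0.12, limma adjusted p = 0.845). This was the smallest SE of the 10 receptors.

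Nr1i2 and Nr1i3 encode PXR and CAR, the sensors of foreign compounds that induce drug-metabolising enzymes. Nr1i2 read 6.64, 6.61 and 6.59 in the KO arrays and 6.66, 6.62 and 6.47 in the WT arrays (log2 change 0.03, 95% interval -0.17 to 0.23). Its other probe set gave 5.55, 5.82 and 5.64 in the KO arrays and 5.65, 5.54 and 5.66 in the WT arrays. The probe sets agreed in direction, with log2 changes of 0.03 and 0.06, both small beside their SE of 0.09 and 0.10. Nr1i3, with 1 probe set, read 8.71, 8.50 and 8.71 in the KO arrays and 8.65, 8.56 and 8.36 in the WT arrays. The genotypes overlapped, and its log2 change was 0.11 (95% interval -0.13 to 0.36, limma adjusted p = 0.777). Without WT replicate 3 it was 0.032, without KO replicate 2 0.19 and without WT replicate 1 0.18.

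Hnf4a encodes the receptor that holds much of the hepatocyte programme in place. It read 9.53, 9.65 and 9.65 in the KO arrays and 9.64, 9.58 and 9.67 in the WT arrays, which overlap (log2 change -0.02, 95% interval -0.21 to 0.17, limma adjusted p = 0.962). Its other 3 probe sets, from the brighter to the dimmer, had log2 changes of -0.13, -0.19 and 0.29. The dimmest of them read 3.40, 3.02 and 3.43 in the KO arrays and 3.09, 2.88 and 3.01 in the WT arrays, overlapping at KO replicate 2. Its 95% interval was 0.01 to 0.57, and it did not pass over all probe sets (limma adjusted p = 0.603).

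Rxra encodes the shared partner of the PPAR, LXR, FXR, PXR and CAR receptors. It read 7.76, 7.71 and 7.67 in the KO arrays, against 7.62, 7.59 and 7.63 in the WT arrays. Every KO array was above every WT array by a small amount, since replicates lay close together, and the log2 change was 0.10 (95% interval -0.08 to 0.28, limma adjusted p = 0.722). The second probe set had overlapping values and a log2 change of -0.0014 (95% interval -0.21 to 0.21). The third, with a mean of 2.76 just above the dim limit, read 2.73, 2.71 and 2.68 in the KO arrays, against 2.75, 2.86 and 2.80 in the WT arrays, a log2 change of -0.10. Its direction was thus opposite to that of the main probe set, and the mean of the 3 gave a log2 change of 0.00086.

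Among the 5 receptors with several probe sets, Esrrg and Nr1i2 had all of theirs in 1 direction, and Ppara, Hnf4a and Rxra had both directions. Of the 19 probe sets, 0 passed at an adjusted p under 0.05 (0.0289% of all 45037 did), and 5 had an unadjusted p under 0.05 (8.08% of all). The genotypes did not overlap in 6 of 19, against 13.4% of all. These 6 came from 3 genes, 3 of them from Ppara, 2 from Rxra and 1 from Esrrg.

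**Figure D4:**
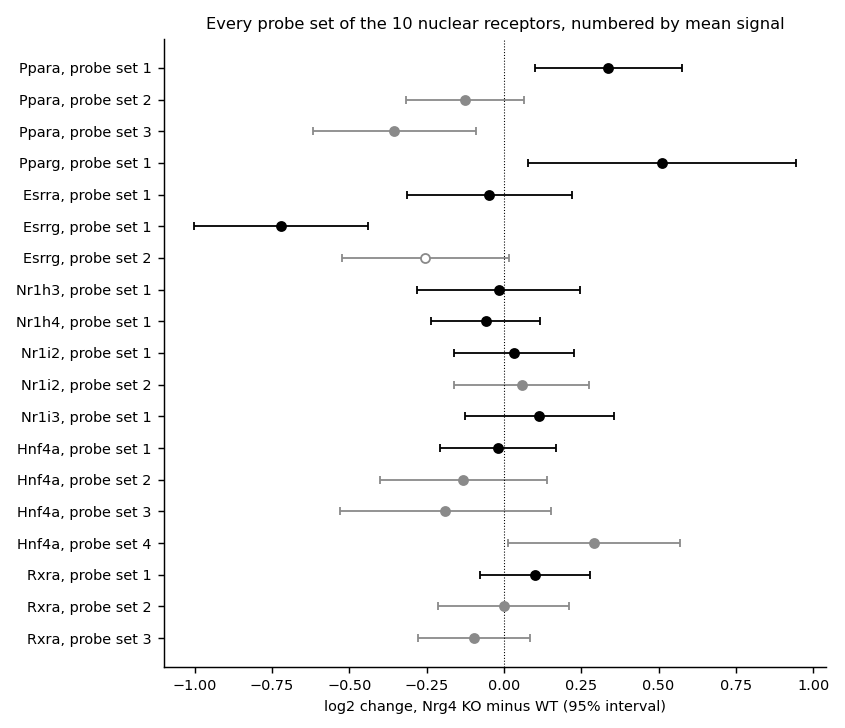
Log2 change (Nrg4 KO minus WT, horizontal axis) with its 95% interval for each of the 19 probe sets, numbered within a gene from the highest mean signal; black marks the main probe set, grey the others and an open circle the probe set under the dim limit. The interval of the main Esrrg probe set lies wholly below 0, and the 3 probe sets of Ppara lie on both sides of it.

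Single arrays weighed on several receptors. WT replicate 3 had the lowest value of the 6 arrays in 5 of the 10 receptors, Ppara, Pparg, Esrra, Nr1i2 and Nr1i3, and in 24.5% of all genes tested. The range over the WT arrays was 0.56 in Pparg, 0.47 in Esrra and 0.34 in Ppara, against 0.02 in Nr1h3 and 0.04 in Rxra. The range over the KO arrays was 0.62 in Pparg, 0.45 in Nr1h3 and 0.41 in Esrrg, against 0.02 in Esrra.

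The other nuclear receptors of the superfamily were read as a list. Of 39 names, 32 had a probe set here, 9 were dim (Ppard and Esr1 among them) and 23 were tested. A higher value was found in 11 and a lower one in 12, with a median log2 change of -0.01. With 1 array left out the median lay between -0.035 and 0.065, so the list had no stable direction. None passed, and none had an unadjusted p under 0.05, against 9.55% of all genes. Nr5a2 (LRH-1), which acts on bile acid genes, had the smallest p of the list with a log2 change of -0.31 (limma adjusted p = 0.553). Nr1d2 (REV-ERB beta), a receptor of the circadian clock, followed at -0.14 and Rara at 0.16. Of 19 coregulators, 13 were tested, 10 higher and 3 lower (median 0.10), against 63.4% of all genes higher, and 0 passed. The direction of this list turned with probe sets averaged, to 6 higher and 7 lower (median -0.033). Its median was 0.058 without WT replicate 3 and 0.060 without KO replicate 2, with 8 of 13 higher in both cases. Crebbp, a histone acetyltransferase, had a log2 change of -0.50, Nrip1 of 0.18 and Lpin1 of 0.38, while 2 other probe sets of Nrip1 lay at -0.56 and -0.20. Ppargc1a had only probe sets annotated to more than 1 gene and was not analysed here.

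Genes under the receptors were then counted, list by list, and 0 genes of these lists passed over all genes. The lists were chosen with earlier results of these data known, so their directions are descriptions and not independent tests. PPAR alpha targets had a lower value in 21 of the 25 tested, where 63.4% of all genes were on the higher side. Their median log2 change was -0.08, against 0.04 for all genes, and it was -0.045 without KO replicate 3 and -0.14 without WT replicate 2. The genotypes did not overlap on the lower side in 7 of 25, against 3.92% of all genes, and on the higher side in 1, against 11.7%. The list mean, centred, was -0.12, -0.09 and -0.08 in the KO arrays, against 0.08, 0.10 and 0.11 in the WT arrays. This direction is that of the 2 dimmer Ppara probe sets and opposite to the brightest. A link between the level of Ppara and this list was not tested.

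The 3 members of smallest p were acyl-CoA thioesterases. Acot1 read 8.12, 8.10 and 7.80 in the KO arrays, against 8.82, 8.62 and 8.60 in the WT arrays (log2 change -0.67, limma adjusted p = 0.110). Acot2 had a log2 change of -0.51 (limma adjusted p = 0.143) and Acot3 one of -0.65 (limma adjusted p = 0.145). These 3 genes are close paralogs, so their probe sets may share signal and are not 3 independent readings, and another probe set of Acot2 gave -0.02. Cyp4a31, Ehhadh, Fgf21 and Acaa1b were the other 4 whose genotypes did not overlap, with log2 changes of -0.96, -0.21, -0.51 and -0.15, and Acaa1b lies on the chromosome of Nrg4. The count of lower members was between 19 and 22 of 25 with any 1 array left out.

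PPAR gamma targets were higher in 7 of 8 tested, against 63.4% of all genes, with a median log2 change of 0.45. Of the 12 names in this list, Adipoq was dim, and Cidec, Plin1 and Cfd were not analysed here. At an unadjusted p under 0.05, 4 were higher and 1, G0s2, was lower, against 7.36% and 2.18% of all genes. Cd36, the fatty acid translocase, read 8.22, 8.16 and 8.26 in the KO arrays, against 7.35, 7.50 and 7.58 in the WT arrays, a log2 change of 0.74 (limma adjusted p = 0.0597). Lpl, lipoprotein lipase, had a log2 change of 0.88 and Plin4, a lipid droplet coat protein, of 0.61. G0s2, an inhibitor of triglyceride lipase, had a log2 change of -0.42, with every KO array under every WT array, as in 3.92% of all genes. Unlike Pparg itself, Cd36, Lpl and Plin4 had every KO array above every WT array, as in 11.7% of all genes. Several of these genes are also expressed in macrophages and endothelium, whose markers are given above. The median was 0.29 without KO replicate 2 and 0.62 without KO replicate 1.

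LXR targets were higher in 9 of 12 tested (median 0.11, and 0.16 without KO replicate 1), which is near the share of all genes. Scd1, the stearoyl-CoA desaturase, had a log2 change of 0.32, Fasn, fatty acid synthase, of 0.37, and Mylip, which degrades the LDL receptor, of 0.16. Abca1 and Srebf1, common LXR targets, were not analysed here. ERR targets, most of them mitochondrial genes, were higher in 14 of 18, against 63.4% of all genes (median 0.06, and 0.088 without WT replicate 2). Cycs had a log2 change of 0.25, Pdk4, which is also in the PPAR alpha list, of -0.49 and Slc25a4 of 0.34. Other probe sets of Cycs lay at -0.16 and -0.09. The low values of Esrrg stood beside a list with 4 of 18 members lower, and a link between them was not tested.

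Genes induced by FXR were higher in 7 of 10 (median 0.09, and 0.14 without KO replicate 1), with Slc51b, which lies on the chromosome of Nrg4, at 0.40, Baat at 0.17 and Osgin1 at -0.33. Of the 3 genes lowered through FXR and SHP, Cyp7a1, the rate-limiting enzyme of bile acid synthesis, had a log2 change of 0.21 (95% interval -0.36 to 0.78), Cyp8b1 of 0.09 and Slc10a1 of 0.01. These positive values rest on WT replicate 1, since without it all 3 were lower (median -0.087, against 0.087 with all arrays and up to 0.21 with another array left out). None of these passed.

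PXR and CAR targets were higher in 17 of 24 (median 0.12), which is near the 63.4% of all genes. At an unadjusted p under 0.05, 5 were higher and 1 lower, against 7.36% and 2.18% of all genes. Cyp2b9, a steroid hydroxylase with female-biased expression in mouse liver, read 7.45, 6.98 and 6.81 in the KO arrays, against 5.85, 4.94 and 2.71 in the WT arrays. Its log2 change was 2.58 (95% interval 1.09 to 4.07, limma adjusted p = 0.29), and WT replicate 3 was far below the other WT arrays. Cyp2b10, a common CAR target, read 4.04, 3.94 and 4.01 in the KO arrays, against 3.81, 3.58 and 3.45 in the WT arrays, a log2 change of 0.38 (limma adjusted p = 0.336). Gstm2, a glutathione transferase, had a log2 change of 0.55. Cyp2b and Gstm genes have close paralogs whose probe sets may share signal. Without WT replicate 3 the median of the list was 0.02, with 14 of 24 higher.

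HNF4A targets were divided evenly, 11 higher and 11 lower, with a median of 0.0034 that lay between -0.0049 and 0.028 with 1 array left out. Apob, the structural protein of very low density lipoprotein, read 7.13, 7.63 and 6.87 in the KO arrays, against 8.40, 8.46 and 8.23 in the WT arrays, a 2.23-fold lower value (log2 change -1.16, limma adjusted p = 0.0778). Apoc2, the activator of lipoprotein lipase, read 10.45, 10.55 and 10.63 in the KO arrays, against 10.21, 10.09 and 10.19 in the WT arrays, a log2 change of 0.38 (limma adjusted p = 0.239). Tat stood at 0.22.

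**Figure D5:**
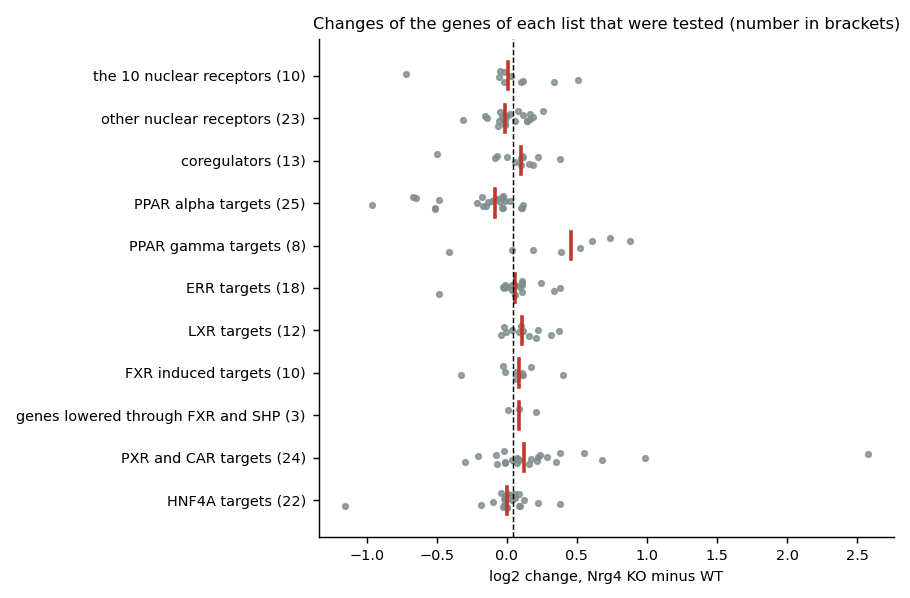
Log2 change (Nrg4 KO minus WT, horizontal axis) of each tested gene (grey points) for the 10 nuclear receptors and for each list of related genes, with the number tested in brackets; the red bar is the list median and the dashed line the median of all genes, 0.04. The median of the PPAR alpha targets is -0.08, below that line, and that of the PPAR gamma targets 0.45, above it.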

How the data were processed

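Biotin-labelled RNA was made from 250 ng of liver RNA per array with a 3' IVT kit, per the labels. The deposited values are log2 RMA values, normalized by the authors between arrays; affy, RMA and limma are the tools in the submitters' processing notes. The sources used here give no versions or genome build. Normalizing arrays to 1 distribution reduces any shift shared by most genes.

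Of 45141 probe sets, 28898 had 1 gene symbol in GEO's platform annotation. Genes whose brightest probe set was under the 40th percentile of all means were left out. KO was compared with WT by limma 3.58.1 (lmFit, eBayes, two-sided; R 4.3.3), and p-values over the 12466 genes were adjusted by Benjamini-Hochberg (threshold 0.05). Single probe sets were fitted over all 45037 that are not controls, unfiltered. With 3 arrays against 3, an exact permutation p cannot be under 0.1. The code of the fit was run on simulated data with independent errors, which hold no effects shared over an array, and no result here rests on that run. The genes named are the members, Nrg4, the 3 of smallest p in each list and the 3 most like Esrrg; any others were picked with their values in view. The receptors and lists were chosen with earlier results of these data known, and the differences within Ppara and list values under alternatives were added after seeing the data. Same-numbered KO and WT arrays were not treated as pairs. Correlations of their deviations from group means were -0.15, 0.03 and -0.01, and those of differently numbered arrays lay between -0.17 and 0.16. These values cannot show whether arrays were handled in pairs. Figures used matplotlib 3.10.9.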

Additional observations from a re-analysis of the deposited data

How the results depend on the processing

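The number of arrays limits precision, and low signal limits Esrrg, Pparg, to a lesser degree Esrra, and the dimmest probe sets of Hnf4a and Rxra. Of the 10 receptors, 0 passed under each alternative but array weights, where 1 did, Esrrg (log2 change -0.73, limma adjusted p = 0.0486). Over its 15 alternatives, Esrrg kept its direction, with log2 changes between -0.79 and -0.49 and limma adjusted p-values between 0.0486 and 0.383. Pparg also kept its direction, between 0.33 and 0.70. Ppara reversed to -0.048 with its probe sets averaged, whose disagreement is the cause. Nr1h3 reversed to 0.049 and Hnf4a to 0.021 with array weights, and Nr1i2 to -0.0098 with quantile normalization again. With 1 array left out, Esrra lay between -0.16 and 0.076, Nr1h3 between -0.12 and 0.11, Nr1i2 between -0.025 and 0.069 and Hnf4a between -0.043 and 0.021 (0.00016 without WT replicate 3); for these the cause was not tested. Nr1h4, Nr1i3 and Rxra kept their sign, but Rxra came to 0.00086 with probe sets averaged, Nr1i3 to 0.032 without WT replicate 3, and Nr1h4 to -0.093 with quantile normalization again. The number of genes called, 5, was 30 at adjusted p under 0.10, 8 with quantile normalization again, 3 with the filter at the 60th percentile, 29 with a variance trend, 50 with array weights and 3 with probe sets averaged. Leaving out an array gave 17 where KO replicate 1 was dropped, and 1 or 2 for each other array. With the replicate number as a block, 2 genes were called, 0 receptors passed, and Esrrg had a log2 change of -0.72 (limma adjusted p = 0.200). The 2 differences between Ppara probe sets lay between 0.39 and 0.56 and between 0.61 and 0.82 over the alternatives chosen after seeing the data.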
